A study of Mus musculus with 13 samples.

Results

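The matrilins (Matn1, Matn2, Matn3 and Matn4), aggrecan (Acan), link protein (Hapln1), cartilage oligomeric matrix protein (Comp) and chondroadherin (Chad) were followed in presumptive intervertebral disc (IVD) and vertebrae of the mouse embryo. Every probe set annotated with exactly one of these 8 names was taken, which gave 13 of the 45037 probe sets tested and 8 of the 18193 genes named. Hapln1 had 4 probe sets, Matn2 and Matn3 had 2 each, and the other 5 genes had 1 each. Tissue was taken by laser capture from the lumbar region at E13.5, 50 ng of RNA was amplified in 2 cycles, and 13 Affymetrix arrays were hybridised. There were 4 arrays of IVD from mutants (Cre+;Tgfbr2lox/lox), 3 of IVD from controls (Cre-;Tgfbr2lox/wt), 3 of vertebrae from mutants (labelled Cre+;Tgrbr2lox.lox) and 3 of vertebrae from controls. All groups carry at least 1 lox allele of Tgfbr2, the type II TGF-beta receptor. Cre was driven by the Col2a promoter, which the study used to delete Tgfbr2 in Col2a-expressing sclerotome, and the controls had no Cre. Both control tissues were dissected out of the same animals, but the labels do not tie array numbers to mice. The captured discs were described by the study as mainly annulus with little notochord. A deposited value is the log2 signal of a probe set relative to its median over the 13 arrays. Such values cannot rank genes by amount, and none are compared in that way.

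Aggrecan is the large chondroitin sulfate proteoglycan that swells cartilage with water. It hangs on hyaluronan chains, and link protein locks that bond. Matrilins are adaptor proteins that tie collagen fibrils to proteoglycans: Matn1 and Matn3 are known from cartilage, while Matn2 and Matn4 are found in many tissues. Comp, a thrombospondin, binds collagens and matrilins, and Chad, a leucine-rich repeat protein, binds collagen and integrins. The vertebral bodies form through cartilage, whereas the annulus becomes a fibrous tissue. In GRCm38.p6 the matrilin genes lie at chr4:130944385-130955476 (Matn1), chr15:34306681-34436242 (Matn2), chr12:8947929-8972028 (Matn3) and chr2:164389393-164405160 (Matn4). The others lie at chr7:79053226-79115099 (Acan), chr13:89540529-89611832 (Hapln1), chr8:70373548-70382066 (Comp) and chr11:94565047-94569127 (Chad).

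The stretch upstream of Matn1, Matn3, Matn4, Acan and Hapln1 is shown because these genes varied together over the arrays. Of the 8 genes, 6 were matched in the RefSeq promoter table of mouse build GRCm38.p6, with 7 windows. Each window holds the 250 bases before the annotated start, read 5′ to 3′ on the strand of the gene. Capitals mark CAAAG or its reverse complement CTTTG, the core of the sequence that SOX-family factors are known to bind. The windows lie at chr4:130944135-130944384 (Matn1), chr12:8947679-8947928 (Matn3), chr7:79052976-79053225 (Acan) and chr13:89540386-89540635 (Hapln1) on the plus strand, and at chr2:164405161-164405410 on the minus strand for 1 of the 2 windows of Matn4. The Hapln1 window precedes a transcript start that lies inside the gene as annotated.
Matn1: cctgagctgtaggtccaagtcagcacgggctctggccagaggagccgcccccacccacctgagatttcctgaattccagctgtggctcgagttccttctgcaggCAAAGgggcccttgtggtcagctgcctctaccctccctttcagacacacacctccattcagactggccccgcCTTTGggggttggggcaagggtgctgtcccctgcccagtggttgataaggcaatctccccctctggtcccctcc
Matn3: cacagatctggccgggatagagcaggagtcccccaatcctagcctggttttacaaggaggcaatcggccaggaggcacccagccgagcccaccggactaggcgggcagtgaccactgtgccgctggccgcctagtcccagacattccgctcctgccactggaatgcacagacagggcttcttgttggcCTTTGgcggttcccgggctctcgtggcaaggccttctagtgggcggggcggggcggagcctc
Matn4: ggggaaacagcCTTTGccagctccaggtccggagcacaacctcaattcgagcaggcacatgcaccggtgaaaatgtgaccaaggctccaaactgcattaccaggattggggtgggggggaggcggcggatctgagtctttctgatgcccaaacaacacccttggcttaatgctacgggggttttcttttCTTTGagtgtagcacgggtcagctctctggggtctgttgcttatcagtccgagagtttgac
Acan: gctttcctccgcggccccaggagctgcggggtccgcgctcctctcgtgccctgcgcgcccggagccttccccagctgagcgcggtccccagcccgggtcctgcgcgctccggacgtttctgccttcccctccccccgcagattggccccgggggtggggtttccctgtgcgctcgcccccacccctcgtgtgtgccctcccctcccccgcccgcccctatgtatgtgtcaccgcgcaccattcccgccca
Hapln1: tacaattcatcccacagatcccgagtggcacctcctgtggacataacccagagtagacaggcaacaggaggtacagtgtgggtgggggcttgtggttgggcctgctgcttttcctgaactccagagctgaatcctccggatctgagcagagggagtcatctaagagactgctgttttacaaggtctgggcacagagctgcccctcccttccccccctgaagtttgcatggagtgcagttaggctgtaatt
CAAAG or CTTTG was present 2 times in the Matn1 window, 1 time in the Matn3 window and 2 times in the Matn4 window shown, and these letters were not in the Acan and Hapln1 windows or in the other Matn4 window. Over all members 3 of 7 windows held it, against 48.6% of 32851 windows of the same length. The longer ACAAAG and ACAATG, searched on both strands, were in 0 of 7 windows, against 16.5% and 10.7% of all windows, and the shorter CAATG, which ACAATG contains, was in 0 of 7, against 32.6%. TATAAA was in 1 of 7 windows, that of Chad, against 12.4% of all windows. A match describes letters and does not show that a factor binds.

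Some arrays carried transcripts of neighbouring tissue, which bears on the members. Liver transcripts (8 genes averaged) reached 3.98 in mutant IVD 4, 3.0 in mutant IVD 3, 5.86 in control IVD 1 and 6.05 in control vertebrae 1, while no other array exceeded 0.21. For 15 neuronal genes the average reached 2.87 in mutant IVD 3 and 2.23 in control vertebrae 3. Averages of 14 skeletal muscle genes were highest for mutant IVD 4 (2.21) and control IVD 1 (2.05). Mutant IVD 3 also stood apart from the other IVD arrays in its annulus genes. The mean of 8 sclerotome and annulus genes was -1.32 there, against 0.49 to 1.19 in the other 3 mutant IVD arrays and 0.63 to 1.43 in control IVD, and within the range of the vertebrae (-1.44 to -0.39 in mutants and -0.62 to -0.01 in controls). Pax1, a sclerotome transcription factor, read -1.0 in it, against 1.25 to 1.35 in the other 3. Its mean of 8 chondrocyte genes was -0.11, below the mutant vertebrae (0.17 to 0.86). That mean lay within control IVD (-0.88 to 0.12) and control vertebrae (-0.24 to 0.66), and above the other 3 mutant IVD arrays (-1.40 to -0.33). The study lists Fmod, Col6a1, Col14a1 and Aspn, which are among the 8 annulus genes, as reduced in mutant IVD. Whether this array is mislabelled was not tested. Tgfbr2 ranged from -0.60 to 0.48 over all arrays, and since which part of the transcript its probe sets cover was not analysed, this checks nothing about the deletion. Xist and the Y-linked genes divided the arrays by sex, all 6 controls falling with mutant IVD 3 and mutant vertebrae 3 on the side with high Xist and the other 5 mutant arrays on the opposite side, so sex and genotype largely overlapped.

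**Figure D1:**
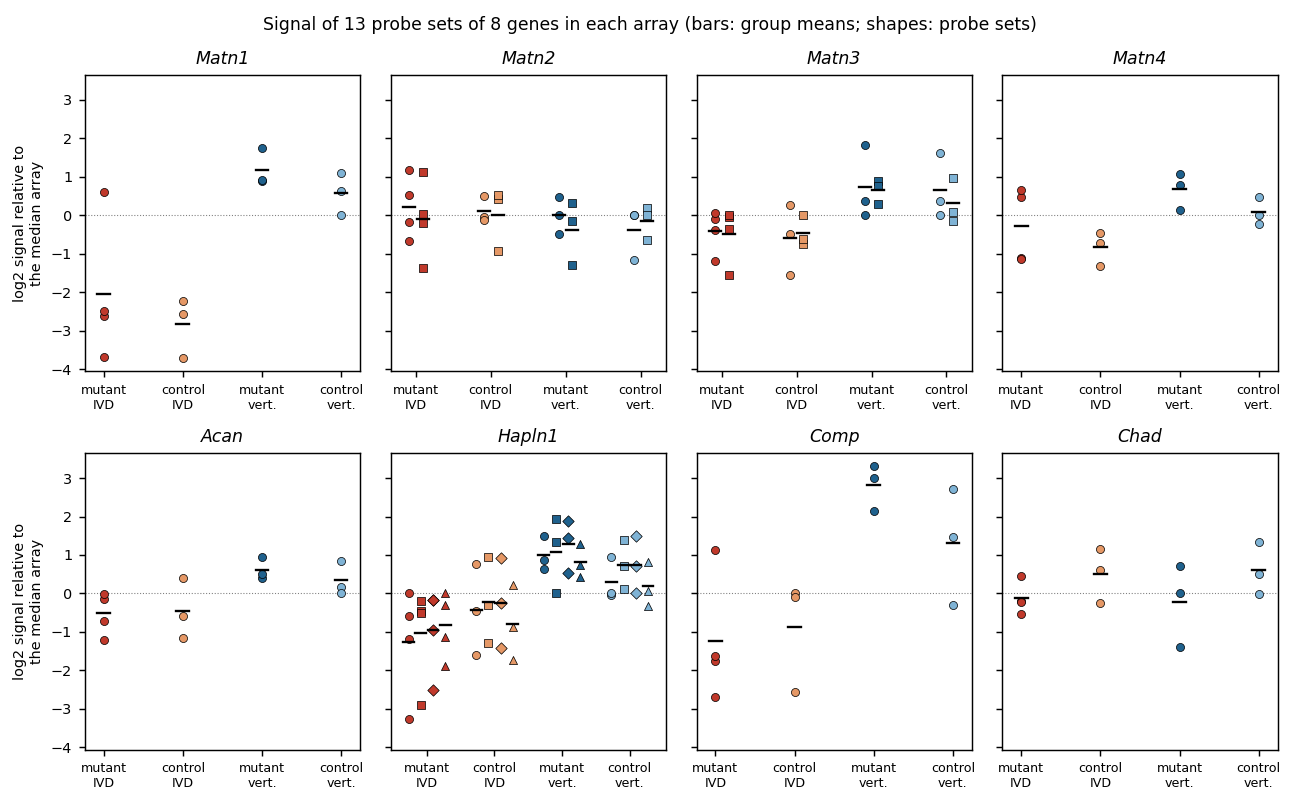
Log2 signal relative to the median array (vertical axis) of the 13 probe sets in each array, by group, in 1 panel per gene. Points are arrays, shapes are probe sets and bars are group means; in the Matn1 panel every IVD array is below every vertebral array of its genotype, and mutant IVD 3 at 0.60 lies within the control vertebrae.

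Matn1, Comp, Hapln1, Matn3, Acan and Matn4 had lower group means in IVD than in vertebrae in both genotypes, and the differences of Matn2 and Chad were small. Of these, Matn1 passed the adjusted threshold between the control tissues once the mouse was taken as a block, and no member passed in the fit of all 13 arrays with no block. Matn1 had the widest gap among the 13 probe sets between the control tissues (10.6-fold), and Comp the widest between the mutant tissues (16.5-fold). No member differed between the genotypes at an adjusted threshold in either tissue. In bulk tissue, fewer cells of a type and less RNA per cell cannot be told apart.

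To ask which of these genes separate disc from vertebrae, IVD was compared with vertebrae within each genotype. Matn1 read -2.62, -2.49, 0.60 and -3.69 in mutant IVD 1 to 4, and 0.88, 1.75 and 0.91 in mutant vertebrae 1 to 3. It read -3.71, -2.57 and -2.23 in control IVD 1 to 3, and 0, 1.10 and 0.62 in control vertebrae 1 to 3. In both genotypes the tissues did not overlap, although mutant IVD 3 lay within the range of the control vertebrae. In the mutants Matn1 averaged -2.05 ± 1.85 in IVD (SD, n = 4) and 1.18 ± 0.50 in vertebrae (SD, n = 3), a log2 difference of -3.23 (SE 0.79, 95% interval -4.95 to -1.50). Its unadjusted limma p was 0.00153 and its adjusted p 0.26. In the controls it averaged -2.84 ± 0.77 in IVD and 0.57 ± 0.55 in vertebrae (SD, n = 3 each), a log2 difference of -3.41 (SE 0.84, 95% interval -5.25 to -1.57, unadjusted p = 0.00166, adjusted p = 1), and 0% of all probe sets passed between the control tissues with no block. The vertebrae of mutants and of controls overlapped, and so did the IVD of mutants and of controls.

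In the control arrays IVD and vertebrae of the same number varied together, so equal numbers were taken as the same mouse here and below. The design states shared mice, but the labels do not tie array numbers to them, so the blocked fits rest on this assumption. Control IVD 1 and control vertebrae 1 both carried liver transcripts (5.86 and 6.05). Because group means of 3 arrays were removed first, this shared signal enters the likeness of all 3 pairs, and its part was not tested. Arrays of unlike number were not correlated, so the likeness does not show that equal numbers are 1 mouse. Taken as pairs, Matn1 differed by -3.71, -3.66 and -2.86 between IVD and vertebrae. With the mouse as a random block in the control arrays the SE was 0.28, against 0.84 without it, and Matn1 passed at an adjusted p of 0.0277. With the mouse as a fixed block the SE was 0.20 and the adjusted p 0.0388. Matn1 was the only member called lower in either blocked fit, where 0.0178% and 0.00666% of all probe sets were called lower. No other member passed, with Comp next at adjusted p = 0.249 and 0.0921 in the random and the fixed block. With no block and without the 4 arrays with liver transcripts, Matn1 differed by -3.26 between the control tissues (SE 0.34, limma adjusted p = 0.189).

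Leaving out mutant IVD 3 changed the call in the mutants. Without it Matn1 differed by -4.11 between mutant IVD and mutant vertebrae (SE 0.46, adjusted p = 0.00649) and Comp by -4.83 (SE 0.80, adjusted p = 0.0353). They were the members called, where 0.115% of all probe sets were called lower. Without the 4 arrays with liver transcripts the differences were -3.73 (adjusted p = 0.0176) and -4.50 (adjusted p = 0.0244), where 0.0178% of all probe sets were called lower. Mutant IVD 3 is among those 4 arrays, so this setting is not independent of the one before. It leaves mutant IVD 1 and mutant IVD 2 as the only IVD arrays of mutants. With all arrays 0.00444% of probe sets were called lower in this comparison and no member was among them.

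Comp read -1.75, -1.63, 1.14 and -2.68 in mutant IVD 1 to 4, and 3.0, 3.30 and 2.14 in mutant vertebrae. The mutant tissues did not overlap, and mutant IVD 3 was again the highest of its group. The log2 difference was -4.04 (SE 0.94, 95% interval -6.08 to -2.0, unadjusted p = 0.0010, adjusted p = 0.238). Comp read -2.56, 0 and -0.08 in control IVD, and -0.29, 2.72 and 1.47 in control vertebrae. Here the groups overlapped, through control vertebrae 1. The log2 difference was -2.18 (SE 1.0, unadjusted p = 0.050, adjusted p = 1), while the differences within the pairs were -2.27, -2.72 and -1.55, all in the same direction.

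**Figure D2:**
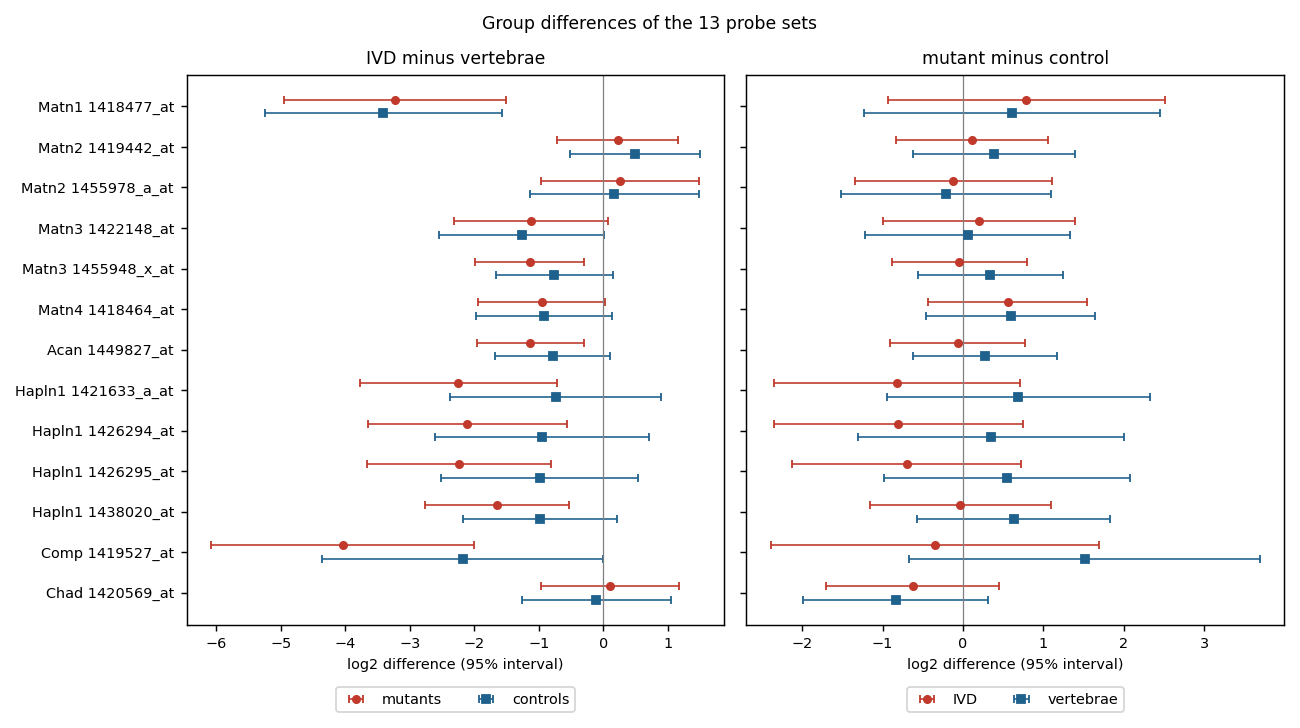
Log2 difference (horizontal axis) with its 95% interval for each probe set; the left panel gives IVD minus vertebrae in mutants (red) and controls (blue), and the right panel mutant minus control in IVD (red) and vertebrae (blue). On the left 10 of 13 probe sets are below 0 in mutants and 11 of 13 in controls; on the right every interval crosses 0.

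The aggregate core of cartilage followed the same order with smaller gaps. Acan read -0.14, -0.72, -0.0041 and -1.20 in mutant IVD, and 0.40, 0.94 and 0.51 in mutant vertebrae. These groups did not overlap, with a log2 difference of -1.13 (SE 0.38, unadjusted p = 0.0121, adjusted p = 0.433). In controls Acan read -1.17, 0.41 and -0.59 in IVD, and 0.18, 0.84 and 0 in vertebrae. The control groups overlapped, with a log2 difference of -0.79 (SE 0.41, adjusted p = 1).

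The 4 Hapln1 probe sets ran closely together, with Pearson r of 0.91 to 0.98 over the 13 arrays. The probe set 1421633_a_at read -0.58, -1.19, 0 and -3.25 in mutant IVD, and 0.63, 1.49 and 0.86 in mutant vertebrae. It read -1.60, 0.76 and -0.46 in control IVD, and -0.04, 0.96 and 0 in control vertebrae. Mutant IVD 4 and control IVD 1, both with liver and muscle transcripts, were the lowest arrays of their groups. The mutant tissues did not overlap for any of the 4 probe sets and differed by -1.65 to -2.25 on the log2 scale (3.13-fold to 4.75-fold lower in IVD, unadjusted p = 0.00522 to 0.0117, adjusted p = 0.343 to 0.429). The control tissues overlapped for all 4 and differed by -0.74 to -0.99 (adjusted p = 1). Of the control pairs, pair 1 had the widest gap for each Hapln1 probe set, -1.56 to -2.13, against -0.20 to -0.60 in the other 2 pairs. Without the arrays with liver transcripts the control differences were -0.33 to -0.58. The part of the neighbouring tissue in this difference was not tested beyond leaving those arrays out.

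Of the other matrilins, Matn3 and Matn4 had lower means in IVD in both genotypes, and Matn2 did not. Matn3, by its probe set 1455948_x_at, read -0.36, -0.06, 0 and -1.57 in mutant IVD, and 0.30, 0.88 and 0.75 in mutant vertebrae. The tissues did not overlap, with a log2 difference of -1.14 (SE 0.39, unadjusted p = 0.0123, adjusted p = 0.436). The other Matn3 probe set, 1422148_at, differed by -1.12 (SE 0.55, adjusted p = 0.646) and its groups overlapped. In controls the probe sets differed by -0.76 and -1.26 and overlapped, but all 3 pairs ran in the same direction for both. The 2 probe sets had r = 0.88, and the ending _x_at marks a probe set that can cross-hybridise.

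Matn4 read 0.47, -1.10, 0.64 and -1.15 in mutant IVD, and 0.14, 1.08 and 0.80 in mutant vertebrae. These overlapped, with a log2 difference of -0.96 (SE 0.45, adjusted p = 0.634). It read -1.32, -0.47 and -0.72 in control IVD, and -0.23, 0.47 and 0 in control vertebrae. In controls the tissues did not overlap, with a log2 difference of -0.92 (SE 0.48, adjusted p = 1), and the pairs gave -1.10, -0.94 and -0.72.

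Matn2 was the exception among the matrilins. Its probe set 1419442_at read 1.19, 0.53, -0.18 and -0.66 in mutant IVD, and -0.49, 0 and 0.48 in mutant vertebrae. It read -0.04, 0.49 and -0.13 in control IVD, and 0, 0.01 and -1.17 in control vertebrae. All 4 groups overlapped, and the log2 differences were 0.22 (95% interval -0.72 to 1.16) in mutants and 0.49 (95% interval -0.52 to 1.5) in controls. The probe set 1455978_a_at gave 0.26 and 0.17, and r between them was 0.64. The intervals span differences in either direction.

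Chad read 0.46, -0.21, -0.21 and -0.55 in mutant IVD, and -1.39, 0 and 0.70 in mutant vertebrae. It read -0.25, 1.15 and 0.60 in control IVD, and -0.02, 1.35 and 0.50 in control vertebrae. The tissues overlapped in both genotypes. The log2 difference between IVD and vertebrae was 0.10 in mutants (95% interval -0.97 to 1.18) and -0.11 in controls (95% interval -1.26 to 1.04).

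Counted together, 8 of 13 probe sets, those of Matn1, Comp, Acan and Hapln1 and 1455948_x_at of Matn3, were at least 2-fold lower in mutant IVD than in mutant vertebrae at an unadjusted p under 0.05, against 0.802% of all probe sets. The same 8 did not overlap between these groups, against 3.21% of all. Without mutant IVD 3 the count was 9 of 13 (0.961% of all), and without the arrays with liver transcripts 6 of 13 (0.893%). In controls only Matn1 met this rule (0.36% of all), and 2 of 13, Matn1 and Matn4, did not overlap (3.9% of all). Of the 13, 10 were lower in IVD in all 3 control pairs, against 17.6% of all probe sets, and 2, Matn1 and Comp, were at least 2-fold lower in each pair, against 0.0999%. In all, 10 of 13 were lower in mutant IVD (53.3% of all probe sets) and 11 of 13 in control IVD (53.7%). The median difference was -1.14 over the 13 probe sets and -0.02 over all probe sets in mutants, and -0.92 and -0.02 in controls. The probe sets of Hapln1 share a transcript, so the 13 are not independent. The members were also chosen with earlier results of these data known, so these shares do not test them as a set.

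**Figure D3:**
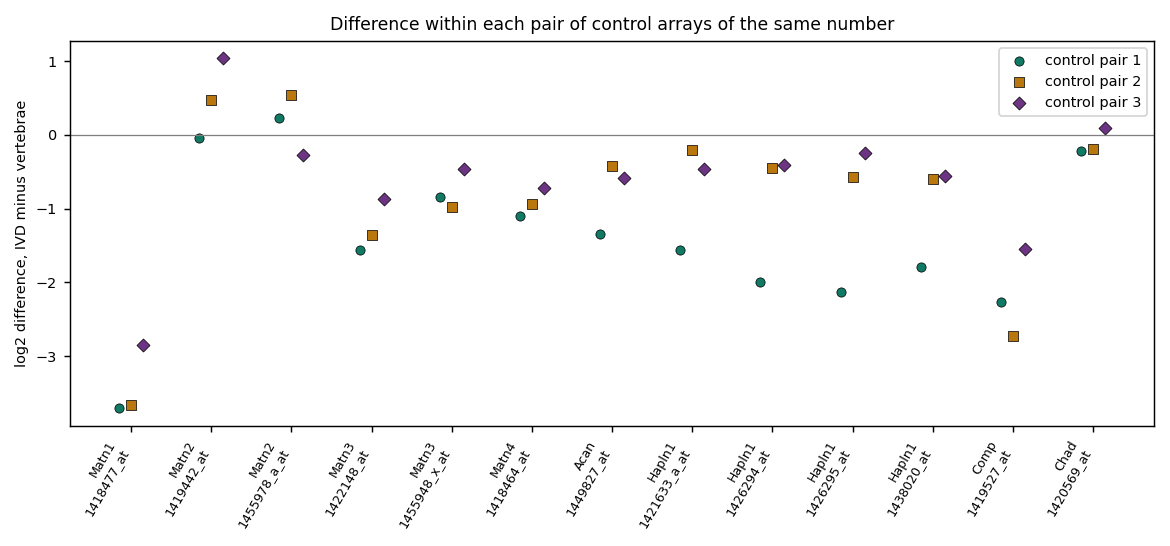
IVD minus vertebrae on the log2 scale (vertical axis) within each of 3 pairs of control arrays of the same number, for each probe set. Matn1 (-3.71 to -2.86) and Comp (-2.72 to -1.55) are below -1 in every pair, and pair 1 has the widest gap for Hapln1.

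Averaged over both genotypes, which uses all 13 arrays in 1 comparison, the tissue difference of Matn1 was -3.32 (SE 0.58, unadjusted p = 9.45e-05, adjusted p = 0.0626) and that of Comp -3.11 (SE 0.69, adjusted p = 0.135). Of the 13 probe sets, 10 were lower at an unadjusted p under 0.05, against 4.02% of all, and none passed the adjusted threshold, which 0.0533% of probe sets passed downward. This average was added after the separate comparisons had been seen.

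To ask whether loss of Tgfbr2 moved these genes, mutant and control were compared within each tissue, and 0 of 45037 probe sets (0%) passed in either tissue by limma, with 1411 in IVD and 1177 in vertebrae at an unadjusted p under 0.05 (by the unequal variance test of the methods 0 adjusted, and 1404 and 614 unadjusted). No member was among those at an unadjusted p under 0.05, where 2.28% of all probe sets were higher and 0.848% lower in mutant IVD, and 1.74% and 0.873% in mutant vertebrae. Every member overlapped between genotypes in both tissues, where 0.937% of all probe sets were lower and 3.68% higher without overlap in IVD, and 1.93% and 3.63% in vertebrae. In IVD, Matn1 differed by 0.79 between mutant and control (SE 0.79, adjusted p = 1). Mutant IVD 3 set that direction, since without it the difference was -0.10. Comp differed by -0.35 (SE 0.94, 95% interval -2.39 to 1.69), and by -1.65 (SE 0.47, unadjusted p = 0.0080, adjusted p = 1) without the 4 arrays with liver transcripts, which leaves 2 arrays of IVD in each genotype. The remaining IVD differences ran from -0.82 for Hapln1 1421633_a_at (95% interval -2.35 to 0.71) to 0.56 for Matn4 (95% interval -0.43 to 1.54).

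In vertebrae 11 of 13 probe sets were nominally above the controls in mutants, against 58.8% of all probe sets. Comp had the widest gap, 2.81 ± 0.61 in mutant vertebrae and 1.3 ± 1.51 in control vertebrae (SD, n = 3 each). Its log2 difference of 1.51 (SE 1.0, 95% interval -0.67 to 3.69, adjusted p = 0.998) had control vertebrae 1 at -0.29 in it, and without the arrays with liver transcripts it was 0.72. Hapln1 1421633_a_at differed by 0.68 (SE 0.75), Matn1 by 0.61 (SE 0.84) and Matn4 by 0.59 (SE 0.48). The medians of the 13 were -0.07 in IVD and 0.38 in vertebrae, beside 0.05 over all probe sets in both.

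Chad lay below the controls in both tissues, within the spread of the arrays. It averaged -0.13 ± 0.42 in mutant IVD (SD, n = 4) and 0.50 ± 0.71 in control IVD (SD, n = 3), and -0.23 ± 1.06 in mutant vertebrae and 0.61 ± 0.69 in control vertebrae (SD, n = 3 each). The log2 differences were -0.63 (SE 0.49) in IVD and -0.84 (SE 0.53) in vertebrae, and the adjusted p was 1 and 0.998. Sex largely overlapped with genotype, and with the Y-linked mean in the model the genotype differences moved while none passed. Those of Chad were then -0.38 in IVD and -0.63 in vertebrae. In IVD Matn1 was 1.92 (SE 0.95), Matn4 0.996 (SE 0.59), Comp 0.45 (SE 1.23) and Hapln1 1421633_a_at -0.40 (SE 0.94). In vertebrae Matn1 was 1.56 (SE 0.93), Matn4 0.96 (SE 0.58), Comp 2.19 (SE 1.21) and Hapln1 1421633_a_at 1.04 (SE 0.93). Within groups the Y-linked mean varied mainly through mutant IVD 3 (-0.02) and mutant vertebrae 3 (-0.03), the mutant arrays with low values. Since mutant IVD 3 stood apart in its annulus genes, these values cannot be read as genotype differences freed of sex.

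Whether the gap between tissues depended on genotype was tested as an interaction, the tissue difference of mutants minus that of controls. By limma 0 of 45037 probe sets (0%) passed (619 at an unadjusted p under 0.05, and 0 adjusted and 506 unadjusted by the unequal variance test), and no member had an unadjusted p under 0.05, which 0.793% of all probe sets had upward and 0.582% downward. Comp gave -1.86 (SE 1.37, 95% interval -4.85 to 1.12), Hapln1 1421633_a_at -1.51 (SE 1.03, 95% interval -3.75 to 0.73) and Matn1 0.18 (SE 1.16, 95% interval -2.34 to 2.70). So the wider gaps of Comp and Hapln1 in mutants were not shown to differ from those in controls. Without mutant IVD 3 the interaction was -2.65 for Comp (unadjusted p = 0.0384, adjusted p = 1) and -0.70 for Matn1. Without the 4 arrays with liver transcripts it was -2.37 for Comp (SE 0.64, unadjusted p = 0.00590, adjusted p = 1) and -0.47 for Matn1. The median over the 13 was -0.34, and over all probe sets -0.0036.

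Over the 13 arrays the 8 genes fell into a block and 2 outsiders. Matn3, Acan and Hapln1 ran most closely together, with Pearson r of 0.94 for Acan and Hapln1, 0.94 for Matn3 and Hapln1 and 0.93 for Matn3 and Acan. Matn1 and Comp had r = 0.93 with each other. Among Matn1, Matn3, Matn4, Acan, Hapln1 and Comp every r was between 0.73 and 0.94. Matn2 had r of -0.38 to 0.04 with these 6 genes and Chad 0.05 to 0.39, and Matn2 and Chad had 0.43 with each other. By rank (Spearman) Chad stood less apart, with 0.32 to 0.54 against the 6 genes, which had 0.72 to 0.98 with each other. Matn2 had -0.38 to 0.03 with them by rank. All of these are descriptions over arrays that share tissue, genotype and neighbouring tissue, so they carry no p.

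**Figure D4:**
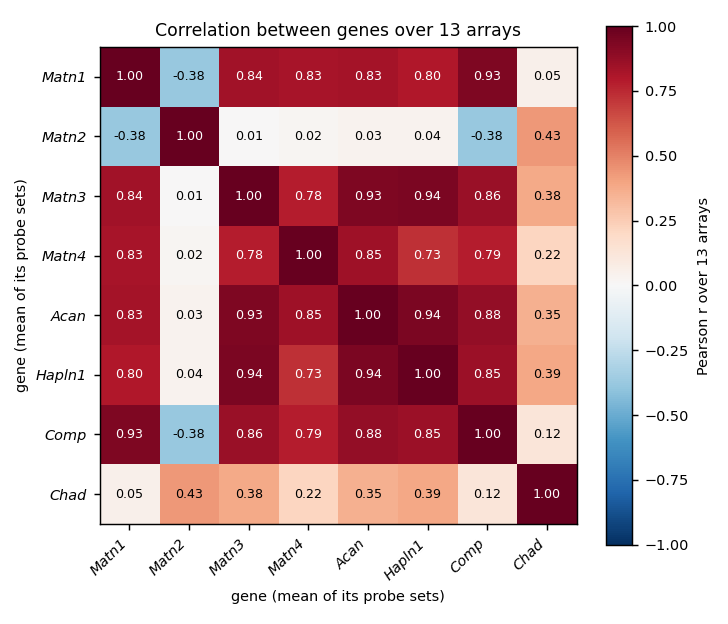
Pearson r over 13 arrays between the 8 genes (both axes), each the mean of its probe sets; red is positive and blue negative. The 6 genes other than Matn2 and Chad have r of 0.73 to 0.94 with each other, and Matn2 has -0.38 with Matn1 and Comp.

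Outside the members, the genes most like each of them were taken by Pearson r over the 13 arrays, each by its best probe set. For Matn1 they were Prkg2, a cGMP-dependent kinase known for its role in the growth plate (0.98), Sorbs2 (0.96) and Ttll3 (0.94). For Comp they were Itga10, the integrin subunit of a chondrocyte collagen receptor (0.97), Meltf (0.96) and Fam20b, a xylose kinase of proteoglycan synthesis (0.95). Acan was closest to Chadl (0.97), Rflna (0.96) and Col9a3, a chain of type IX collagen (0.96). Hapln1 was closest to S100b (0.97), Susd5 (0.97) and Cnmd, chondromodulin (0.96). Matn3 was closest to Susd5 (0.96), Tcfl5 (0.96) and Magel2 (0.96), and Matn4 to Wwp2 (0.97), Stard13 (0.92) and Tef (0.92). Matn2 was closest to Gnai2 (0.95), Ubap2 (0.94) and Eva1b (0.93), and Chad to Rcor3 (0.91), P4ha2, a collagen prolyl hydroxylase (0.88), and Ucma (0.86). These are the highest values out of all named genes, so high values are found in part by search.

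Against the lists for cell types, Matn1 ran opposite to the sclerotome and annulus genes (r = -0.82), and Comp less so (-0.69), whereas Acan and Hapln1 had -0.44 and -0.39. Matn2 had r = 0.67 with that list. Against 8 chondrocyte genes the order differed, with 0.98 for Hapln1, 0.96 for Acan, 0.96 for Matn3, 0.88 for Comp, 0.82 for Matn1, 0.80 for Matn4, 0.37 for Chad and 0.04 for Matn2. Mutant IVD 3 lay with the vertebral arrays for both Matn1 and the annulus genes. Against the skeletal muscle genes, which stood high in mutant IVD 4 and control IVD 1, r was -0.78 for Hapln1, -0.72 for Acan and -0.55 for Matn1. The part of muscle tissue in the members' values was not tested.

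**Figure D5:**
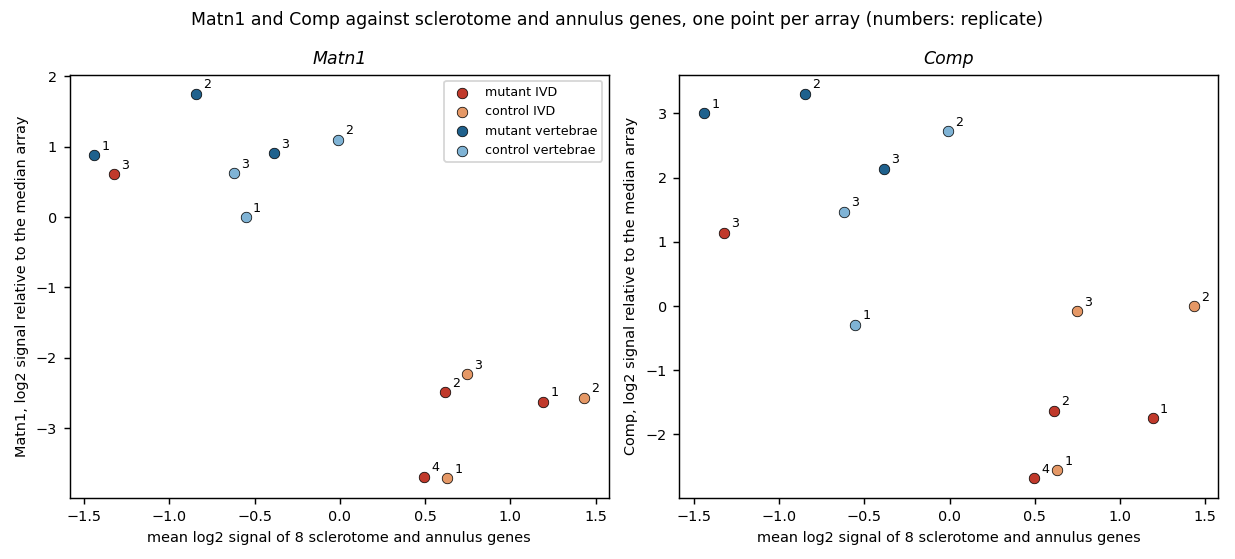
Log2 signal of Matn1 (left) and Comp (right) against the mean log2 signal of 8 sclerotome and annulus genes (horizontal axis), both relative to the median array; each point is an array with its replicate number. Mutant IVD 3 (-1.32 and 0.60 for Matn1) sits among the vertebrae, and for Matn1 the other 6 IVD arrays are at the lower right. For Comp control IVD 2 and 3 lie above control vertebrae 1. The genes of the horizontal axis other than Nkx3-2 were named IVD-enriched by the study from these same arrays.

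The other genes of the cartilage matrix were read as a mean of the probe sets of each gene, and none in any list passed the adjusted threshold in the 5 comparisons. Of 18 collagens and other cartilage matrix genes measured, 15 were lower in mutant IVD than in mutant vertebrae (9 at an unadjusted p under 0.05, median -0.96, beside 7e-04 over all genes) and 12 in control IVD than in control vertebrae (5 at an unadjusted p under 0.05, median -0.66, beside -0.0095). Over all genes 49.9% were lower in mutant IVD (3.26% at an unadjusted p under 0.05) and 52.2% in control IVD (1.07%). Epyc, epiphycan, had the widest gap in both, -2.15 (SE 0.63) in mutants and -1.65 (SE 0.67) in controls. Between genotypes the widest gap was that of Ucma, an inhibitor of mineralisation, at -1.29 (SE 0.52, unadjusted p = 0.0284) in IVD and -1.10 (SE 0.56) in vertebrae. For Col2a1, which encodes type II collagen, IVD minus vertebrae was -0.63 (SE 0.49) in mutants and 0.04 (SE 0.53) in controls.

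A list of 12 measured genes held other link proteins and lecticans, the hyaluronan receptor Cd44, hyaluronan synthases and a hyaluronidase. Of these, 9 were above vertebrae in mutant IVD (50.1% of all genes, median 0.22) and 7 in control IVD (47.8% of all genes, median 0.12). In mutants the widest gap was that of Bcan, brevican, a lectican of the brain, at -0.91 (SE 0.32, unadjusted p = 0.0149, adjusted p = 0.425). Vcan, versican, the lectican of embryonic mesenchyme, had the widest gap upward, 0.88 (SE 0.31, unadjusted p = 0.0146, adjusted p = 0.423). In controls the widest was that of Tnfaip6, which remodels hyaluronan, at 1.11 (SE 0.39, unadjusted p = 0.0147, adjusted p = 1). Among the genes that make and sulfate chondroitin sulfate, the side chain of aggrecan, 14 of 20 were lower in mutant IVD than in mutant vertebrae (5 at an unadjusted p under 0.05, median -0.25) and 11 of 20 in controls (0 at an unadjusted p under 0.05, median -0.05). The shares of all genes lower in IVD were 49.9% in mutants (3.26% at an unadjusted p under 0.05) and 52.2% in controls (1.07%). The count in controls was thus near the share. Csgalnact1, which starts the chain, had the widest gap in both genotypes, -1.67 (SE 0.65) in mutants and -0.93 (SE 0.70) in controls. The interaction was below 0 for 18 of these 20 (1 at an unadjusted p under 0.05, median -0.26, beside 0.0046 over all genes). It was below 0 for 49.1% of all genes (0.561% at an unadjusted p under 0.05).

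Of 11 genes for proteases that cut matrix proteins such as aggrecan and Comp, with the inhibitor Timp3, 9 were above vertebrae in mutant IVD (50.1% of all genes) and 8 in control IVD (47.8%). At an unadjusted p under 0.05 there were 4 in mutants and 2 in controls, against 4.83% and 1.61% of all genes, and none passed the adjusted threshold. The medians were 0.29 and 0.31. Adamts20 had the lowest value in mutants, -0.43 (SE 0.31). Adamts15, an aggrecanase, had the widest gap in mutants, 1.83 (SE 0.63, adjusted p = 0.412), and Htra1, a secreted serine protease, in controls, 1.95 (SE 0.92, adjusted p = 1). The thrombospondins other than Comp did not share its pattern, since 2 of 4 were lower in mutant IVD (median -0.22) and 1 of 4 in control IVD (median 0.15). Of the transcription factors Sox5, Sox6 and Sox9, which drive cartilage genes, 3 of 3 were lower in mutant IVD (median -0.49) and 2 of 3 in control IVD (median -0.30). For both lists, the shares of all genes lower in IVD were 49.9% in mutants and 52.2% in controls. Sox9 differed by -0.56 (SE 0.23, unadjusted p = 0.0330, adjusted p = 1) in controls.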

How the data were processed

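Processed values of 13 arrays were used, 1 value for each probe set. Per the labels and the study's methods, the authors ran RMA in GeneSpring after subtracting background (versions not given in the sources used here). The deposited values are log2 ratios, with each probe set centred on its median array (median 0), so no signal over background can be read from them. Precision depends on the number of arrays and on the spread between them. The 64 control probe sets were dropped. In GEO's platform annotation 34945 of the others have 1 gene name, 932 several and 9160 none.

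A means model of the 4 groups was fitted with limma 3.58.1 in R 4.3.3 (lmFit, eBayes) to all 13 arrays. Tests were two-sided, adjusted by Benjamini-Hochberg over 45037 probe sets and called at an adjusted p under 0.05. Replicates are labelled as biological. Intervals are at 95%. For gene lists the probe sets of a gene were averaged, adjusted over 18193 genes. The analysis of variance with unequal variances of the methods was an alternative, as were replicate blocks (statmod 1.5.0), quantile normalization, median centring, array weights, a Y-linked covariate and leaving out arrays. After removing group means, control IVD and vertebrae of the same number correlated with r = 0.80, 0.57 and 0.57 (consensus 0.538), and since the design states shared mice they were treated as pairs in the blocked fits. Mutant arrays had -0.40, 0.24 and -0.15 and were not. The pairing was thus chosen on the same values that the blocked fits then used. The fit was tested on simulated data. Promoter windows were searched and figures drawn with Python 3.11.15 and matplotlib 3.10.9.

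The members and the gene lists were chosen with earlier results of these data known. All member probe sets are described. The 3 genes most like each member were named, and from each list the gene with the widest gap in a comparison. Vcan, Adamts20 and Col2a1 were named besides, after their values were seen.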

Additional observations from a re-analysis of the deposited data

Results flagged for a closer look

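Among the 13 probe sets, each checked in the 4 arrays of mutant IVD, 1 had an array far from the others. For Hapln1 1426294_at, mutant IVD 4 read -2.89, against -0.45, -0.20 and -0.52 in mutant IVD 1 to 3, a gap of 0.882 of the range of the group, which is above the critical value of Dixon's test. Chance gives about 1 such flag in 20 groups. Mutant IVD 4 is also 1 of the arrays with liver and skeletal muscle transcripts (3.98 and 2.21), whose part in this value was not tested. The groups of 3 arrays were not checked in this way.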

How the results depend on the processing

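In 39 differences given one by one, 943 values under alternatives kept their direction except for 29 values of 9 differences, and 6 gained significance, those of Matn1 and Comp given above. Among 26 other differences between genotypes or in the interaction, 79 of 604 values changed sign and none passed the adjusted threshold. The cause of each change was not tested unless the arrays left out show it.

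Between control IVD and control vertebrae 0 probe sets were called, 42 with the mouse as a random replicate block, 32 with it as a fixed block, 2 with array weights, 47 when averaged over genotypes (this and the average over tissues were added after seeing the data), and 0 to 9 when each array was left out, with 9 without mutant IVD 3. Blocking all 13 arrays by array number gave 0. Between mutant IVD and mutant vertebrae 7 were called, 0 in the 2 groups alone, 0 with the array number as a block, 0 by the unequal variance test, 2 after median centring, 3 with the Y-linked covariate, 29 without the arrays with liver transcripts, 55 with array weights and 0 to 177 when each array was left out, with 177 without mutant IVD 3 and 0 without mutant IVD 1, 2 or 4, mutant vertebrae 2 or control vertebrae 3. Between mutant and control IVD 0 were called and 0 to 1 when each array was left out, with 1 without control vertebrae 2. In the mutant tissues and between genotypes the block changed no call of a member.

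Direction changed as follows. In mutant against control IVD, Matn1 was -0.15 without the arrays with liver transcripts and ran from -0.10 to 1.34 when arrays were left out, and Comp was 0.13 with the array number as a block, 0.45 with the Y-linked covariate, 0.58 averaged over tissues and from -1.19 to 0.13 when arrays were left out, against -1.65 without the arrays with liver transcripts. Between mutant and control vertebrae Hapln1 1421633_a_at was -0.0692 averaged over tissues. In the interaction Matn1 was -0.47 without the arrays with liver transcripts and from -0.70 to 0.73 when arrays were left out. Between the control tissues Chad was 0.021 with array weights and from -0.43 to 0.27 when arrays were left out, and Matn2 1455978_a_at from -0.10 to 0.63. Between the mutant tissues Matn2 1419442_at was -0.12 with array weights and from -0.10 to 0.52 when arrays were left out, Matn2 1455978_a_at -0.22 and from -0.19 to 0.69, and Chad -0.55, -0.21 after quantile normalization and from -0.48 to 0.57. No filter for dim probe sets could be applied, since the values hold no level.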
